A study of Mus musculus with 2 samples.

Results

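Aminoacyl-tRNA synthetases are the enzymes that join each amino acid to its tRNA. The 36 genes described here were chosen by name, and each symbol matched 1 row of the gene tables, which held 43346 mouse genes, 21474 of them protein-coding. They comprise 20 cytosolic synthetase genes and 16 mitochondrial ones, whose symbols end in 2. The study profiled RNA over 200 nt from Purkinje cells, the output neurons of the cerebellar cortex, captured by laser (per a protocol linked in the labels) from wild-type C57Bl6 mouse tissue (source strain B6NCrl). Per the labels each library came from an adult male aged 8 months and was made from a pool of 50 cells with ERCC spike-in RNAs added. They are called pool 1 and pool 2 here after the replicate numbers in the labels. The same donor identifier stands on both pools with different biosamples, so a single animal is possible and the spread between them may be technical. The labels give a single group, so nothing was tested between conditions, no p-value is given, and the values describe these 2 pools.

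Every synthetase activates its amino acid with ATP and then transfers it to the matching tRNA. Cytosolic and mitochondrial ribosomes use separate tRNAs, and most amino acids have a separate nuclear gene for each compartment. In mammals, some of the cytosolic enzymes sit together in the multi-synthetase complex, while the rest act alone or with partners of their own. Purkinje cells are known to be sensitive to faulty charging: a mutation that weakens editing by the alanyl-tRNA synthetase Aars causes their loss in sticky mice.

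Pool 1 held 23830685 expected counts, the deposited estimate of reads per gene, and pool 2 held 27907662. The spike-ins took 1.40% and 0.940% of them. Levels below are in TPM, the length-corrected share of a library's transcripts scaled to a fixed total. All 10 Purkinje cell markers were detected, with a median TPM of 1737 in pool 1 and 1238 in pool 2. Markers of other cells were present as well: 10 of 10 for Bergmann glia and astrocytes (median TPM 179 and 126), 7 of 8 for granule cells (12.6 and 15.1), 7 of 7 for oligodendrocytes (19.3 and 14.8), 5 of 5 for molecular layer interneurons, 6 of 6 for vessels and 4 of 7 for microglia. Blood genes differed between the pools, with a median TPM of 114 in pool 1 and 400.1 in pool 2. All synthetases are expressed in every cell type, so their levels include RNA from those cells, and how much was not tested. Fewer cells of a type and less RNA per cell cannot be told apart in pooled cells.

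All 36 synthetases were detected, taken as a TPM of 1 or more in each pool, against 51.7% of protein-coding genes. A level of 10 TPM or more in each pool was reached by 25 of the 36, against 26.8% of protein-coding genes. The 2 compartments differed here, since 19 of 20 cytosolic genes and 6 of 16 mitochondrial genes reached 10. The summed counts of the 36 genes were 58732 in pool 1 and 61619 in pool 2, and single genes ranged from 67 to 15969. Together the family made up 0.160% of the protein-coding TPM in pool 1 and 0.137% in pool 2.

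The cytosolic genes stood above the mitochondrial ones as a group. Their median TPM was 38.3 in pool 1 and 31.5 in pool 2 (34.9 ± 4.80, mean ± SD, n = 2), and that of the mitochondrial genes was 8.72 and 8.22 (8.47 ± 0.357). The difference of the medians was 2.13 on the log2 scale in pool 1 and 1.94 in pool 2 (2.04 ± 0.14), which corresponds to 4.39-fold and 3.84-fold. For scale, the median of the mean TPM over detected protein-coding genes was 12.3. Ranked among those genes, the middle cytosolic synthetase stood at percentile 73.2 and the middle mitochondrial one at 40.7. Levels of the 36 genes ran in nearly the same order in both pools (Pearson r = 0.987 on log2(TPM + 1) and Spearman rho = 0.983 over 36 genes, which share the same 2 libraries and are not independent replicates). The plot of every member by pool shows the separation and its main exception, Lars2.

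**Figure D1:**
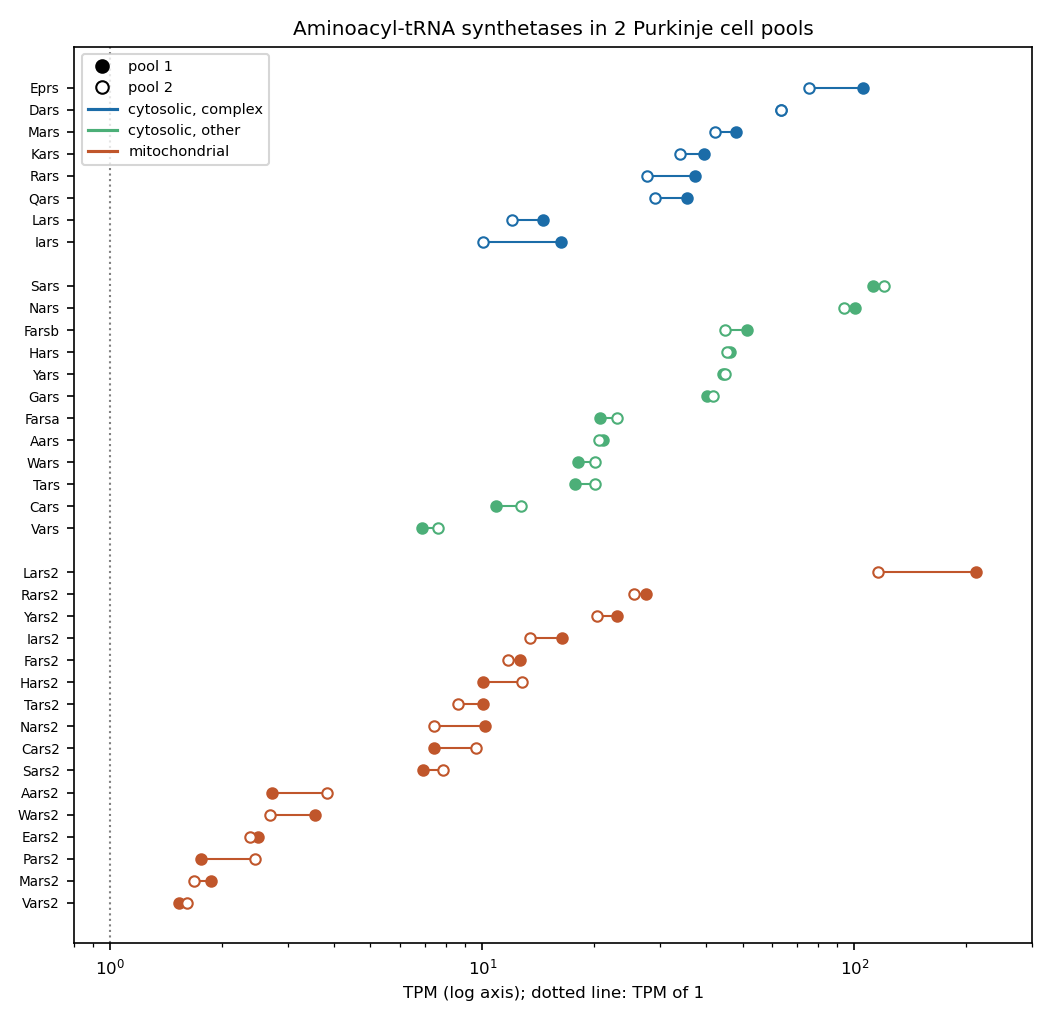
TPM (log axis) of the 36 synthetase genes in pool 1 (filled) and pool 2 (open), grouped as cytosolic genes of the multi-synthetase complex, other cytosolic genes and mitochondrial genes, with a line joining the 2 pools. Every point lies right of the dotted line at a TPM of 1, and Lars2 lies apart from the other 15 mitochondrial genes, which stay below 30 TPM.

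Of the 8 cytosolic synthetases in the multi-synthetase complex, Eprs was the highest by the TPM of the gene. Eprs is a single protein that charges both glutamate and proline tRNAs (chromosome 1, 185363044 to 185428360), and it read 105.62 TPM in pool 1 and 75.37 in pool 2. Dars, for aspartate, read 63.47 and 63.36 TPM, the smallest spread of any member (SD 0.123% of the mean). The pools thus matched for Dars and lay apart for Eprs. By the transcript with the most counts, Dars stood above Eprs, with 62.29 and 62.43 TPM against 38.53 and 33.94.

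Mars, for methionine, read 48.12 TPM in pool 1 and 42.25 in pool 2. Kars, for lysine, whose gene makes both a cytosolic and a mitochondrial enzyme, read 39.32 and 33.93. Rars, for arginine, read 37.28 and 27.64, and Qars, for glutamine, 35.57 and 29.08. These 4 genes were close in level, and each had its higher value in pool 1.

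Lars and Iars were the lowest of the complex by the TPM of the gene. Lars, for leucine, read 14.50 TPM in pool 1 and 12.03 in pool 2, and Iars, for isoleucine (chromosome 13, 49682100 to 49734267), read 16.29 and 10.04. The lowest and highest complex genes therefore differed by several fold, although their proteins are built into 1 particle. The order depends on short transcripts. By the transcript with the most counts, Qars (5.93 and 5.75 TPM) and Mars (9.20 and 7.57) read below Lars, and Iars read 15.41 and 4.55. The complex genes made up 42.4% of the cytosolic synthetase TPM in pool 1 and 37.3% in pool 2 (39.8 ± 3.59).

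The genes of the proteins that hold the complex together were at least as high in TPM as most genes of its enzymes. Eef1e1 read 79.99 TPM in pool 1 and 102.26 in pool 2, Aimp1 read 64.68 and 63.04, and Aimp2 read 49.06 and 51.19. Eef1e1 overlapped the range of Eprs and Aimp1 that of Dars, and Aimp2 lay just above Mars.

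Among the 12 other cytosolic synthetases, Sars and Nars led. Sars, for serine (chromosome 3, 108424865 to 108445209), read 111.89 TPM in pool 1 and 119.77 in pool 2 and was the highest cytosolic synthetase by its mean (116 ± 5.57, n = 2). Nars, for asparagine, read 100.51 and 93.50. With Eprs and Dars, these genes, the 4 highest of the 20 in these pools, took 44.9% of the cytosolic synthetase TPM in pool 1 and 44.7% in pool 2. Within this sum the TPM of Sars was higher in pool 2, those of Eprs and Nars lower and that of Dars level. The near equal sums thus do not show a constant share of each gene.

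A second tier lay between 40 and 52 TPM. Farsb, the beta subunit of the cytosolic phenylalanine enzyme, read 51.34 and 44.74 TPM, and Hars, for histidine, read 46.34 and 45.56. Yars, for tyrosine, read 44.41 and 44.84. Gars, for glycine, which like Kars serves both compartments, read 40.23 and 41.61. Hars, Yars and Gars each moved by under 2 TPM between the pools.

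The lower members of this group charge alanine, threonine, tryptophan, cysteine and valine. Aars (chromosome 8, 111033144 to 111057664) read 21.09 TPM in pool 1 and 20.55 in pool 2, Wars 18.01 and 20.08, and Tars 17.78 and 20.09. Wars and Tars overlapped and cannot be ordered, and Aars lay just above both. The leading Aars transcript of 5750 nt shares 1326 bases with Exosc6 on the same strand, so its level is less certain. Cars read 10.87 and 12.71 TPM, and Vars, at 6.86 and 7.59, was the lowest cytosolic synthetase and the only one below 10. Over 50% of the Vars value came from an 826-nt transcript, and the 3731-nt transcript with the most counts read 1.37 and 1.64 TPM. Farsa, the alpha subunit that pairs one to one with Farsb in the enzyme, read 20.64 and 22.97, so Farsb exceeded it 2.49-fold in pool 1 and 1.95-fold in pool 2. The Farsb gene overlaps Sgpp2 on the opposite strand (25.65 and 19.06 TPM) by 2315 bases, introns included. How much of this overlap lies in exons was not tested.

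Synthetases fall into classes I and II by the fold of their catalytic domain. The 10 cytosolic class II genes had a median TPM of 43.3 in pool 1 and 43.2 in pool 2. The median of the 9 cytosolic class I genes was 18.0 and 20.1, with Eprs, which holds both folds, left apart. No such gap was seen among the mitochondrial genes, where the 9 class I genes had medians of 7.43 and 9.58 and the 7 class II genes 10.01 and 7.85, so the order changed between the pools.

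Lars2, the mitochondrial leucine enzyme (chromosome 9, 123366927 to 123462666), had the highest mean of all 36 genes. It read 212.78 TPM in pool 1 from 15969 expected counts and 115.70 TPM in pool 2 from 11012. Its mean of 164 ± 68.6 (n = 2) also carried the largest spread of any member, with an SD of 41.8% of the mean. Its value overlapped that of Sars, so the first place in the order is not settled by these pools. Lars2 alone made up 60.6% of the mitochondrial synthetase TPM in pool 1 and 46.8% in pool 2.

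Several values bear on how the Lars2 level should be read. The files hold a single transcript of this gene, 3881 nt long. The TPM lies above the upper bound deposited with it in both pools (203.8 to 210.2 in pool 1 and 111.1 to 115.4 in pool 2). This offset was not particular to Lars2. Nars, also with 1 transcript, read 100.51 TPM in pool 1 against bounds of 95.11 to 100.50. Gars, with 1 transcript as well, read 40.23 in pool 1, near the top of its bounds (37.39 to 40.98). In a search of the transcript with the most counts of each member against the mouse transcripts of GENCODE release M21, bases 3278 to 3349 of the Lars2 transcript in that release matched Gm15564, a noncoding transcript, over 72 bases at 98.6% identity. Gm15564 itself held 2 and 4 counts. Gm42418, a noncoding gene in a copy of the ribosomal RNA repeat, also had its lower value in pool 2, with 3781.76 and 1537.95 TPM, while the mitochondrial ribosomal RNA mt-Rnr2 had the higher value there, with 8451.72 and 11314.27. The part of ribosomal RNA reads in the Lars2 value was not tested. Without Lars2, the cytosolic genes made up 86.0% and 85.7% of the family's TPM in place of 70.8% and 76.1%, and the median of the other 15 mitochondrial genes was 7.43 and 7.85 TPM.

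After Lars2 the mitochondrial genes dropped to an upper tier of 5 genes at 10 TPM or more in both pools. Rars2, for arginine, whose human counterpart is mutated in a form of pontocerebellar hypoplasia, read 27.51 TPM in pool 1 and 25.50 in pool 2. Yars2, for tyrosine, read 23.04 and 20.32, and Iars2, for isoleucine, 16.38 and 13.45. Rars2 did not overlap with Yars2 or Iars2 in either pool. Fars2, which charges phenylalanine as a single chain, read 12.65 and 11.68, and Hars2, for histidine, read 10.01 and 12.80. The ranges of these last genes overlapped.

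A middle tier held Tars2 at 10.05 and 8.58 TPM, Nars2 at 10.17 and 7.40, Cars2 at 7.43 and 9.58, and Sars2 at 6.93 and 7.85, for threonine, asparagine, cysteine and serine. Each of these overlapped the next in the order, so they form 1 band. The Cars2 gene overlaps Naxd on the opposite strand by 984 bases, introns included, and Naxd was higher (65.63 and 76.87 TPM). In the search of transcripts, Cars2 matched Naxd over 220 bases at 99.5% identity. Whether the quantification used the strand was not stated in the sources used here, and without it reads from such overlapping genes cannot be told apart.

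The lowest band lay between 1 and 4 TPM. Aars2, for alanine, read 2.71 TPM in pool 1 (95% exact Poisson interval 2.32 to 3.14 from 175 counts) and 3.82 in pool 2 (3.41 to 4.27 from 312). Wars2, for tryptophan, read 3.54 and 2.68, and Ears2, for glutamate, 2.50 and 2.37. Pars2, for proline, read 1.75 and 2.44. Mars2, for methionine, read 1.86 and 1.68 TPM from 413 and 472 counts on a single 11294-nt transcript. Vars2, for valine, was the lowest of the 36 at 1.53 TPM (1.19 to 1.94 from 67 counts) and 1.61 (1.30 to 1.97 from 93). In pool 1 its value lies below the bounds deposited with it (1.73 to 3.75), which overlap those of Mars2 (1.64 to 1.99), so the last place is uncertain. The intervals cover counting error only. Over the whole order by mean TPM, the ranges of 23 of 35 neighbouring pairs overlapped and 12 did not.

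Among the amino acids, 13 have 1 cytosolic and 1 mitochondrial gene in the set, which allows a direct comparison within an amino acid. The cytosolic gene was higher in both pools for 11 of the 13 pairs and at least 2-fold higher in both for 7, with a median ratio of 4.48 in pool 1 and 3.56 in pool 2. The ratio was widest for methionine, where Mars exceeded Mars2 25.9-fold and 25.1-fold, and for serine, where Sars exceeded Sars2 16.1-fold and 15.3-fold. Asparagine followed, with Nars 9.88-fold and 12.6-fold above Nars2. The first place of methionine depends on short transcripts of Mars and on the 11294-nt length of the Mars2 transcript. In counts, Mars held 1131 and 1226 and Mars2 held 413 and 472. Taking for each gene the transcript with the most counts, Mars over Mars2 was 4.95 and 4.51, below Sars over Sars2 at 12.2 and 11.2 and Nars over Nars2 at 21.8 and 18.7. The cytosolic gene was still higher in both pools for 11 of 13 pairs in that setting, but not the same 11.

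At the other end, arginine and cysteine were nearly balanced. Rars exceeded Rars2 1.36-fold in pool 1 and 1.08-fold in pool 2, and Cars exceeded Cars2 1.46-fold and 1.33-fold. Isoleucine had ratios of Iars over Iars2 of 0.995 and 0.746. By the transcript with the most counts, isoleucine turned to 2.97 and 1.21 and cysteine to 1.26 and 0.861. For leucine the order was turned, with Lars at 0.0681 of Lars2 in pool 1 and 0.104 in pool 2. Eprs, which covers 2 amino acids in the cytosol, exceeded Ears2 42.2-fold and 31.8-fold and Pars2 60.4-fold and 30.9-fold. These are the largest ratios in the plot of partner ratios. By the transcript with the most counts, Eprs over Ears2 was 23.9 and 16.0, and Eprs over Pars2 was 26.0 and 15.7. In that setting Nars over Nars2 was lower in pool 1 (21.8) and higher in pool 2 (18.7).

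**Figure D2:**
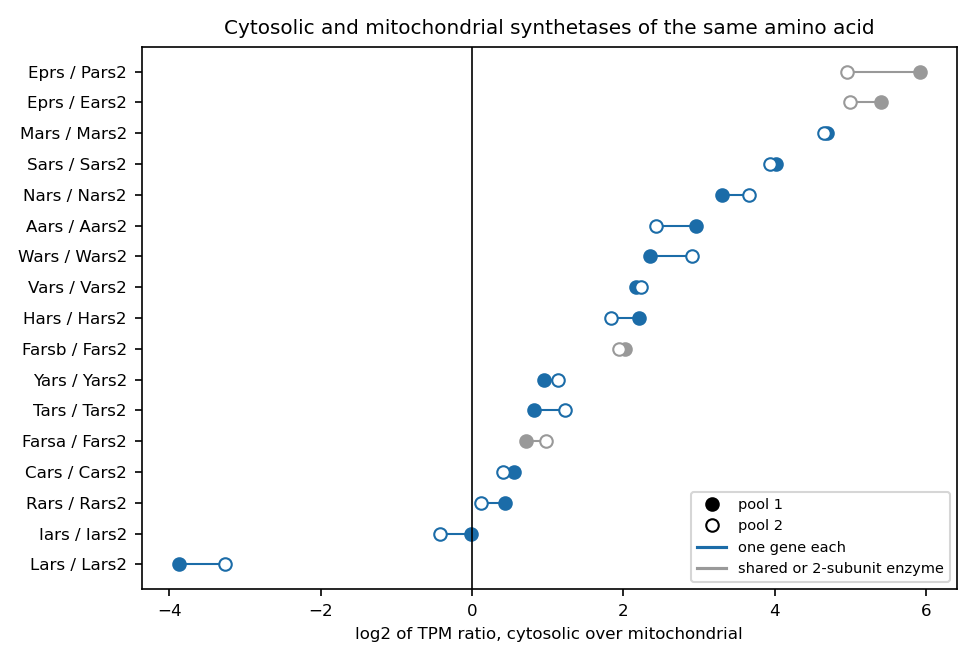
Log2 ratio of TPM, cytosolic over mitochondrial gene, for 13 pairs with 1 gene each (blue) and 4 combinations with a shared or 2-subunit enzyme (grey), in pool 1 (filled) and pool 2 (open). Points right of 0 have the higher cytosolic gene, and Lars over Lars2 stands alone at the left, between -3.88 and -3.27.

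In mitochondria, glutamine has no synthetase of its own in this scheme: Ears2 first charges the glutamine tRNA with glutamate, and the amidotransferase made of Qrsl1, Gatb and Gatc then converts it. Qrsl1 read 31.61 TPM in pool 1 and 24.13 in pool 2, Gatc 22.24 and 20.70, and Gatb 17.97 and 14.55. All 3 subunits were thus well above Ears2. Mtfmt, which formylates the initiator methionine tRNA charged by Mars2, read 12.17 and 8.69 TPM, also above its synthetase in TPM. In counts the order was turned, with 409 and 376 for Mtfmt and 413 and 472 for Mars2, whose transcript is 11294 nt long. Tarsl2, a cytosolic relative of Tars outside the 36 genes, read 9.06 and 8.68.

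The pools differed little for most synthetases. Differences are given as the log2 ratio of TPM + 1, pool 2 over pool 1, a scale that understates the ratios of low genes. The median over the 36 genes was -0.07, and that over the 11445 protein-coding genes with a mean TPM of 1 or more was -0.08. None of the 36 was at least 1.5-fold higher in pool 2, against 3.10% of those protein-coding genes, and 2 were at least 1.5-fold lower, against 6.23%. The 2 were Lars2 at -0.87 and Iars at -0.65. The next were Eprs at -0.48, Rars at -0.42 and Nars2 at -0.41, while Aars2 had the highest ratio at 0.38. On counts scaled by TMM and divided by the mean effective length of the pools, Nars2 turned to 0.0325 and Eprs shrank to -0.17. Rars read -0.30, Iars -0.62 and Lars2 -0.78 in that setting. It moved the median of all protein-coding genes by only 0.07. The effective lengths behind the deposited TPM differed between pools 1 and 2 for Nars2 (2129.95 and 2820.08 nt) and Eprs (2269.69 and 2653.28 nt). The median SD was 9.03% of the mean over the members and 11.9% over detected protein-coding genes.

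All 8 complex synthetases had the lower value in pool 2, with a median log2 ratio of -0.27, and Dars was level at -0.002. Of the 12 other cytosolic synthetases, 8 had the higher value in pool 2, with a median of 0.07. For reading these counts, 59.3% of the protein-coding genes were lower in pool 2. The grouping was noticed in these data and was not tested, since genes are not replicates. The mitochondrial genes had a median of -0.10, with 10 of 16 lower in pool 2. Of the scaffold genes, Aimp1 was lower and the other two were higher, with log2 ratios between -0.04 and 0.35.

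The direction of single genes depends on the scale and, under TMM and DESeq2, also on using the mean effective length for both pools. Scaled to the spike-ins, the median of all protein-coding genes moved by 0.66 on the log2 scale, all 20 cytosolic genes were higher in pool 2, the complex median became 0.39 and that of the other cytosolic genes 0.73. Under TMM and DESeq2 scaling and under an adjustment for transcript length and level, 7 of 8 complex genes stayed lower in pool 2, with Dars on the other side. The gap between the medians of the complex and the other cytosolic genes was -0.34 as deposited, between -0.39 and -0.26 under those scalings and with CPM (counts scaled to the library total), and -0.21 when only the transcript with the most counts was used for each gene.

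Transcript length moved with the pool ratio across the genome and is given beside it for that reason. The median log2 ratio of protein-coding genes was 0.13 below an effective length of 1000 nt, 0.01 from 1000 to 2000 nt, -0.13 from 2000 to 4000 nt and -0.26 above that. For the synthetases the medians were -0.06 for the 14 genes from 1000 to 2000 nt, -0.05 for the 19 genes from 2000 to 4000 nt and -0.09 for the 3 longer genes, Iars, Aars and Mars2. After the adjustment, Lars2 stood at -0.63 and Iars at -0.42, so Lars2 alone stayed past 1.5-fold. The complex genes had a median effective length of 2007 nt against 2213 nt for all 36.

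**Figure D3:**
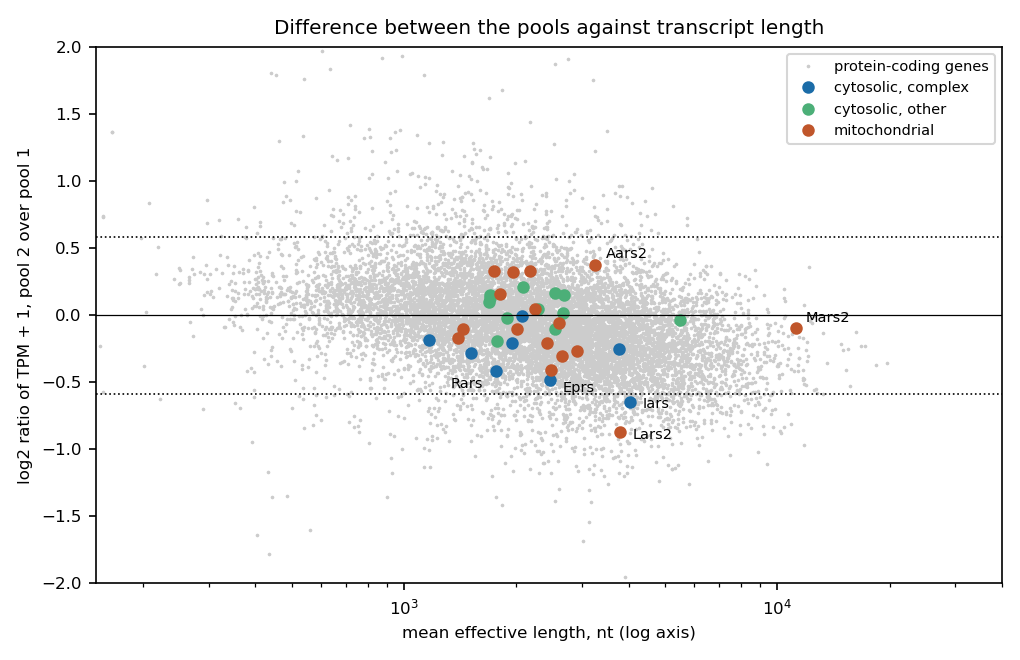
Log2 ratio of TPM + 1, pool 2 over pool 1, against mean effective length (log axis) for the 36 synthetases (coloured by group) and the 11445 protein-coding genes with a mean TPM of 1 or more (grey), with dotted lines at 1.5-fold; 11 grey genes lie outside the axes. The complex genes (blue) lie on or below 0, and Lars2 and Iars lie below the lower dotted line.

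Most synthetase genes used the same leading transcript in both pools. Of the 36 genes, 10 had 1 transcript in the files and 26 had several. Of 19 with several transcripts and 10 TPM or more in each pool, 18 had the same leading transcript by the deposited percent of the gene's TPM (94.7%, Wilson 95% interval 75.4 to 99.1), beside 91.5% of 4461 protein-coding genes chosen in the same way. The interval treats the genes as independent draws, although they share the same 2 libraries. In 13 of the 19 the leader held over 50% in both pools. Dars, Fars2, Aars and Yars were the most uniform, with leaders at 92 to 99%.

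The gene with a different leader was Wars. Its 2831-nt transcript held 54.7% in pool 1 and 42.3% in pool 2, and its 2764-nt transcript held 44.7% and 56.6%, so both forms were present at similar levels. Hars2 was nearly as divided, with its 3336-nt leader at 51.9% and 49.3%. Iars and Farsa kept their leaders but with very different shares. The 4426-nt Iars transcript held 94.6% in pool 1 and 45.3% in pool 2, which is 15.41 and 4.55 TPM, a wider gap than that of the whole gene. The 1826-nt Farsa transcript read 86.9% and 48.3%.

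In several genes of either compartment, a short transcript led by TPM while a longer one took more reads. In Mars a 621-nt transcript held 71.9% and 71.8% of the TPM but only 31.7% and 32.5% of the counts, and the 2939-nt transcript with the most counts read 9.20 and 7.57 TPM. In Qars a 761-nt transcript led with 40.1% and 39.2%, and the 2793-nt transcript with the most counts read 5.93 and 5.75 TPM. Eprs kept the same leader by both measures, but its 4906-nt transcript held 36.5% and 45.0% of the TPM and 77.3% and 81.6% of the counts, at 38.53 and 33.94 TPM. Iars2 differed as Mars and Qars did, with a 1866-nt leader by TPM and a 5471-nt leader by counts, and it shares 2034 exon bases with Rab3gap2 on the opposite strand. The gene levels of Mars, Qars and Eprs therefore rest largely on how reads were assigned to short transcripts. Counting only the transcript with the most reads, the complex held 31.2% of the cytosolic TPM.

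**Figure D4:**
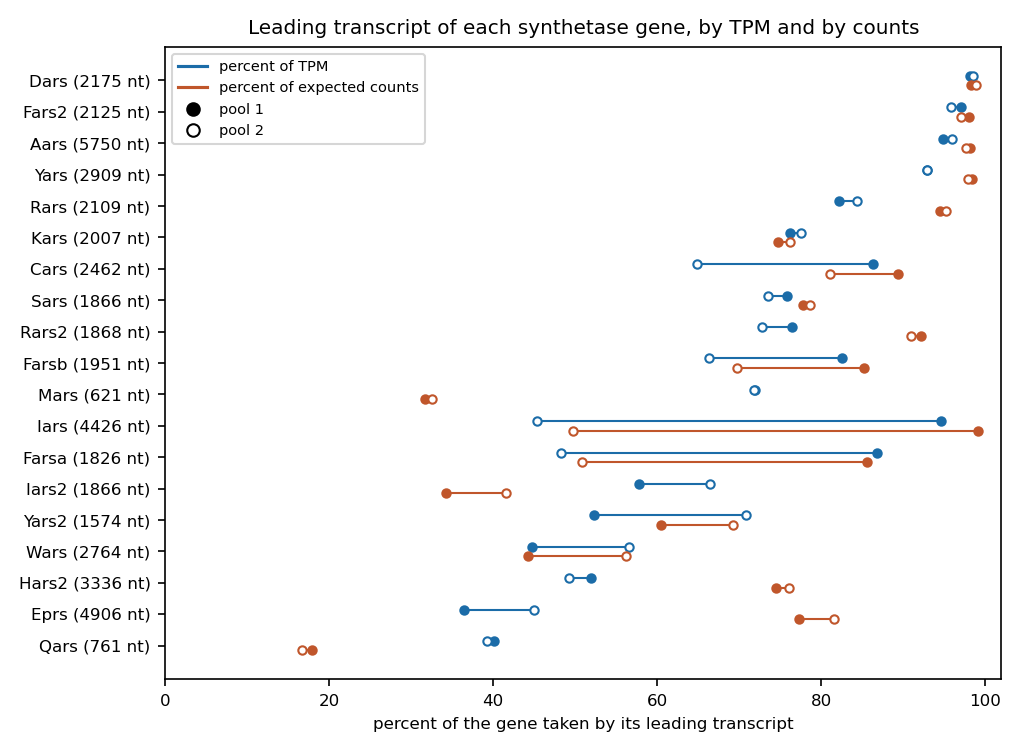
Percent of each gene taken by its leading transcript (named by length in nt) in pool 1 (filled) and pool 2 (open), by TPM (blue) and by expected counts (orange), for the 19 synthetase genes with several transcripts and 10 TPM or more in each pool. The 2 measures lie far apart for Mars, Qars, Eprs, Hars2 and Iars2, and the pools lie far apart for Iars and Farsa.

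Synthetase genes are among the known targets of Atf4, the transcription factor made when uncharged tRNAs activate the kinase Eif2ak4 (Gcn2) and related kinases. Its binding element, shared with C/EBP factors, has the core TGATGNAA. RefSeq promoters on GRCm38.p6, running from 250 bases before to 50 after the start, matched 26 of the 36 genes, 12 cytosolic and 14 mitochondrial. Cars, Hars, Hars2, Lars, Mars, Nars, Pars2, Rars, Vars and Wars had no entry. The core was searched on both strands (TTNCATCA on the other strand). It was present in 5 of the 12 cytosolic promoters and in none of the 14 mitochondrial ones, beside 4.51% of 27025 promoters of all genes. A window of 1 match for each of these 5 genes is shown to let the element and its flanks be compared, on the strand of the gene, with the match in capitals:
Yars, chr4:129189896-129189923: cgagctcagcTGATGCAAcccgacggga
Gars, chr6:55037961-55037988: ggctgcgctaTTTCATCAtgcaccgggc
Aars, chr8:111033841-111033868: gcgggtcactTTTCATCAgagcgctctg
Iars, chr13:49682127-49682154: actgtcagtaTTGCATCAcctccagacg
Tars, chr15:11399656-11399683: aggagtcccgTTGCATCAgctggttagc

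The first bases of the matches shown for Gars and Tars lie at -30 and -15 from the start, and those for Yars, Iars and Aars at 4, 8 and 10. Aars has a further match, not shown, whose first base lies at -112. The Tars gene is on the minus strand and the other 4 are on the plus strand. Of the windows shown, Yars has the core as written, and in the others it reads as the reverse complement. A match describes the letters and does not show that the factor binds there. These genes were not set apart by level, since Yars and Gars stood above 40 TPM, Aars and Tars near 20 and Iars between 10 and 17.

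Of 16 genes of the Atf4 branch itself, 14 were detected, with a median over the list of 5.34 TPM in pool 1 and 5.42 in pool 2, below that of detected protein-coding genes. The list ran from Atf4 at the top to Trib3. Atf4 read 96.63 TPM in pool 1 and 110.80 in pool 2. Ddit3 (Chop), a factor induced by it, read 93.00 and 102.82, although it shares 68 exon bases with Mars on the opposite strand. Asns, the asparagine synthetase gene that is a classic target, read 57.32 and 59.20. The amino acid enzymes Phgdh and Psat1 read 44.02 and 63.67, and 33.04 and 32.78. The stress-linked Trib3 (0.24 and 0.06 TPM) and the cystine carrier Slc7a11 (0.89 and 0.63) were under the threshold, and Eif2ak4 was low at 1.22 and 2.12. The other 8 lay between Slc7a11 and Asns, among them the methylene-tetrahydrofolate enzyme Mthfd2 (5.01 and 6.13) and the amino acid carrier Slc7a5 (1.73 and 1.55). Of the 16, 10 had the higher value in pool 2, beside 40.5% of protein-coding genes. None differed by 1.5-fold on the log2(TPM + 1) scale. As plain TPM ratios, Cebpb and Eif2ak4 were at least 1.5-fold higher in pool 2 and Trib3 lower, all at under 3 TPM.

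**Figure D5:**
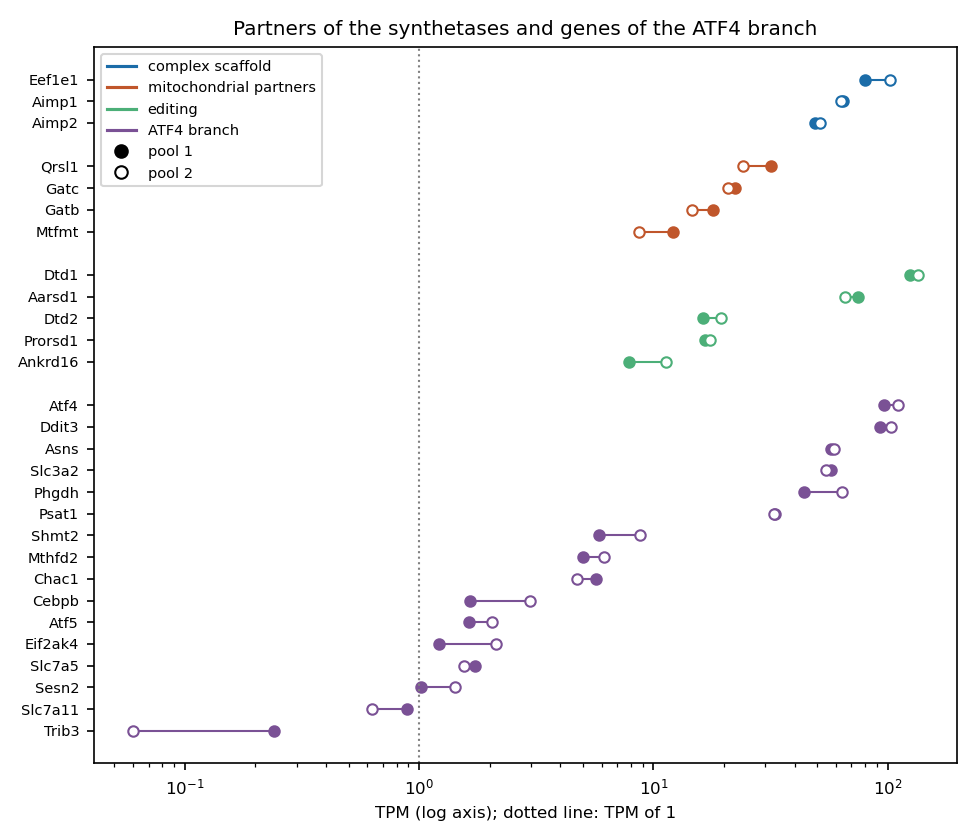
TPM (log axis) of the complex scaffold genes, the mitochondrial partners of the synthetases, editing genes and the Atf4 branch in pool 1 (filled) and pool 2 (open). Only Slc7a11 and Trib3 lie left of the dotted line at a TPM of 1 in both pools.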

How the data were processed

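RNA-seq of 2 pools was analysed. Per the notes deposited with the files, the authors used mm10 and GENCODE M4 gene models to quantify genes and transcripts. Aligner and strand setting: not given in the sources used here. A Smart-seq protocol is linked to pool 2 per the labels and none to pool 1. Expected counts, as deposited, are unnormalized read estimates. The deposited TPM values sum to the same total in each library, spike-ins included. The deposited percent gives each transcript's part of its gene's TPM. Of 69691 entries, 97 are spike-ins and 26248 have numeric names of unstated identity, left out here.

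Symbols and coordinates came from GENCODE M21 on the same assembly. The members and lists were chosen with earlier results of these data known. The text names all 36 members, the listed partner genes (of longer lists, some), and isoforms of the genes with the lowest leading percent or a leader that differs between pools, to which Iars, Farsa, Mars, Iars2 and the 4 most uniform genes were added after their values were seen. Protein sequences were not used here, and some results are not reported here.

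Ratios used log2(TPM + 1). Scales from edgeR 4.0.16 (TMM) and DESeq2 1.42.0 (size factors, both on rounded expected counts, in R 4.3.3), from 51 spike-ins, and after a lowess adjustment (span 30%) were alternatives. With TMM and DESeq2 the scaled counts were divided by the mean effective length of the pools, while TPM uses that of each pool. Transcripts were compared with blastn 2.17.0 (at least 95% identity over 60 bases). Scripts ran in Python 3.11.15 with pandas 2.3.3, numpy 2.4.6, statsmodels 0.14.6, scipy 1.17.1 and, for plots, matplotlib 3.10.9. They were tested on simulated data. Intervals are at 95%. The Poisson intervals cover only the error of counting, as PCR copies were not marked by molecular identifiers. The Wilson interval treats genes as independent draws.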

Additional observations from a re-analysis of the deposited data

How the results depend on the processing

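No paired analysis was possible because the study has only 1 group. In each pool alone, the median TPM of the cytosolic genes lay between 31.5 and 38.3 and the log2 difference of the medians between 1.94 and 2.13. At 5 TPM or more in each pool, 10 mitochondrial genes were detected. The cytosolic median was 40.9 with the mean in place of the median, 57.6 in CPM and 23.4 from the transcript with the most counts, and the mitochondrial median was 18.7, 17.9 and, without Lars2, 7.64. The log2 difference was 1.15 with the mean, 1.68 in CPM, 2.19 without Lars2 and 2.19 with the mean and without Lars2, so Lars2 moved the mean. The cytosolic share was 66.8% in counts and 85.8% without Lars2, and the complex share 31.2% from the transcript with the most counts. The cytosolic median log2 ratio changed sign to 0.0545 with TMM, 0.0534 with DESeq2, 0.63 with spike-ins and 0.0684 after the adjustment, and the mitochondrial one to 0.00284, 0.00176 and 0.56 with the first 3. The complex median was -0.15 with TMM, -0.15 with DESeq2, 0.39 with spike-ins and -0.13 in CPM, and that of the other cytosolic genes 0.73 with spike-ins and -0.00357 from the transcript with the most counts. On the spike-in scale 18 members were at least 1.5-fold higher, 0 lower, and Iars read 0.0113. At 2-fold 0 were lower, and after the adjustment 1. The cause was not tested beyond this. Of 216 alternatives for single members, 144 stayed within 0.1 of the value given, and the others moved further. Of the 22 members lower in pool 2 as deposited, 5 turned higher with TMM, 5 with DESeq2, 5 after the adjustment and 21 with spike-ins (all but Lars2). Settings on Lars2, on single transcripts, and for the complex were chosen after seeing the data. Depth limits Vars2 and Pars2 most, with 67 and 70 counts in pool 1.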

Other observations

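Editing and quality control genes, which remove wrong amino acids from tRNAs or act beside the synthetases, were all detected (5 of 5). Dtd1, a D-aminoacyl-tRNA deacylase, read 124.31 TPM in pool 1 and 134.28 in pool 2, more than any cytosolic synthetase in either pool. Aarsd1, a free-standing editing protein related to Aars, read 74.64 and 65.60 TPM, above Aars itself in both pools. Ankrd16, known as a modifier of Purkinje cell loss in sticky mice, read 7.84 and 11.34 TPM. Dtd2 read 16.27 and 19.42, and Prorsd1 read 16.56 and 17.36.

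Genes that make tRNAs ready for charging were detected in 11 of 11 cases. Tsen34, a subunit of the splicing endonuclease for tRNAs, was the highest at 95.31 and 94.91 TPM, and Rtcb, the tRNA ligase, read 52.68 and 51.74. Trnt1, which adds the CCA end that accepts the amino acid, read 44.68 and 39.04.

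Eef1a1, which carries charged tRNAs to the ribosome, read 386.91 TPM in pool 1 and 359.21 in pool 2, while Eef1a2, the form that takes over in mature neurons, read 8.66 and 5.20. The level of Eef1a1 is uncertain, because processed copies of it in the genome can take its reads. Tufm, the mitochondrial counterpart, read 49.05 and 57.32. Of the 4 ribosome rescue genes listed, Hbs1l was the highest at 23.57 and 19.62 TPM. Gtpbp2 read 8.97 and 13.51, Pelo 5.41 and 5.69, and Gtpbp1 5.10 and 3.74.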
